A study of Homo sapiens with 32 samples.

Results

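RNA-seq libraries of 3 A673 clones with knockout (KO) of EZH2 were compared with 3 libraries of EZH2-proficient A673 cells, 6 of the 32 samples of the series. The libraries were chosen by their labelled genotype within the second experiment of the study, with no use of measured values. A673 is an established Ewing sarcoma cell line driven by the EWS::FLI1 fusion. The study asked how loss of the cohesin subunit STAG2 changes transcription in this tumor, and the EZH2 and SUZ12 KO clones were made to learn which genes depend on Polycomb repression. The controls were 2 libraries of a single clone that carries a doxycycline-inducible Cas9 at the AAVS1 locus (genotype iCas9, WT clone) and 1 library of the unedited parental line (WT). The EZH2 KO clones 1, 2 and 3 (genotype iCas9+EZH2ko) were derived from that WT clone, with 1 library each. All KO clones had thus passed through another round of editing and single-cell isolation, and this step cannot be told apart from the loss of EZH2 in the comparison. Whether the WT clone libraries came from separate cultures is not stated, so the p-values measure the spread between libraries. That spread was estimated over all 12 libraries of the experiment in a single fit. Besides the 6 compared here, the fit held 3 STAG2 KO and 3 SUZ12 KO libraries.

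EZH2 is the catalytic subunit of Polycomb repressive complex 2 (PRC2), which methylates lysine 27 of histone H3 together with EED, SUZ12 and the histone-binding proteins RBBP4 and RBBP7. The mark, H3K27me3, is read by the PRC1 complex and keeps developmental regulators silent outside their own lineage, typically at CpG-dense promoters. EZH1 is a paralog that can occupy the same position in the complex.

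Reads per gene symbol were compared as CPM, read counts divided by the library total scaled with the TMM method. The 6 libraries held 16848611 to 20663679 counts, and a gene was treated as below the floor of a group when no library of that group held more than 3 counts, on average 0.167 CPM in the controls. The 50 most abundant genes took 12.3% to 12.5% of the counts in controls and 10.4% to 11.2% in EZH2 KO clones, and the TMM factors ran from 0.918 to 0.940 and from 1.01 to 1.07. The mean chi-square per gene was 31.9 to 66.6 between pairs of EZH2 KO clones, 22.2 and 27.2 between the parental and the WT clone libraries, and 9.41 between the 2 libraries of the WT clone, which are not separate clones. The identity of the line was checked with 8 Ewing sarcoma genes, of which CD99 was listed at 0 counts in all 6 libraries and 7 were measured. Their summed level was 705 to 839 CPM in controls and 1241 to 1535 CPM in EZH2 KO clones. Blood markers were close to absent, with 6 of 6 below 1 CPM in every library and CD3E and MS4A1 at 0.

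EZH2 transcripts were strongly reduced in all 3 KO clones. EZH2 (ENSG00000106462) is a gene of chromosome 7 (GRCh38, 148807257 to 148884321, − strand). It was measured at 162 and 166 in the WT clone libraries, 184 in the parental line, and 45.6, 56.1 and 28.2 CPM in KO clones 1, 2 and 3. The groups did not overlap, and clone 3 held the fewest transcripts. EZH2 fell by 1.98 on the log2 scale (standard error of 0.203 and adjusted p = 0.000137 from edgeR's quasi-likelihood test with Benjamini-Hochberg adjustment). In the 3 SUZ12 KO clones of the same experiment EZH2 stood at 203 to 229 CPM, and the direct difference of EZH2 KO from SUZ12 KO was −2.32 (standard error 0.205, adjusted p = 0.00186 from edgeR). Transcripts remaining in a KO clone do not report the protein, which counts do not measure.

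The other core subunits of PRC2 did not pass the test. SUZ12, the structural subunit, was at 56.6, 63.1 and 57.6 CPM in controls and 48.6, 46.2 and 62.3 CPM in EZH2 KO clones (log2 fold change −0.17, adjusted p = 0.628 from edgeR), with overlapping groups. The paralog EZH1 was at 14.6, 15.2 and 15.4 CPM in controls and at 20.7, 21.7 and 17.7 CPM in EZH2 KO clones, where every clone was above every control. Its log2 fold change of 0.41 (standard error 0.262) did not pass the test (adjusted p = 0.313 from edgeR). EED had a log2 fold change of −0.37, RBBP4 of −0.47 and RBBP7 of 0.30, none of which passed. Of 8 tested accessory subunits, 2 (25%, against 12% of all tested genes) rose and 1 (12.5%, against 3.69%) fell. JARID2, which helps to recruit PRC2, rose from 53.5, 54.8 and 43.1 CPM to 85.2, 136 and 76.6 CPM (log2 fold change 0.97, adjusted p = 0.00794 from edgeR). EPOP, another accessory subunit, rose from 7.79 to 9.68 CPM to between 14.8 and 24.2 CPM (log2 fold change 1.09, adjusted p = 0.0118 from edgeR, and 0.0633 without WT clone replicate 2). The fall of PHF19, a Polycomb-like subunit, was small (log2 fold change −0.33, adjusted p = 0.0493 from edgeR) and was not called without any 1 of the 6 libraries, with an adjusted p of up to 0.151. EZHIP, an inhibitor of PRC2, had at most 3 counts in any of the 6 libraries and was not tested.

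**Figure D1:**
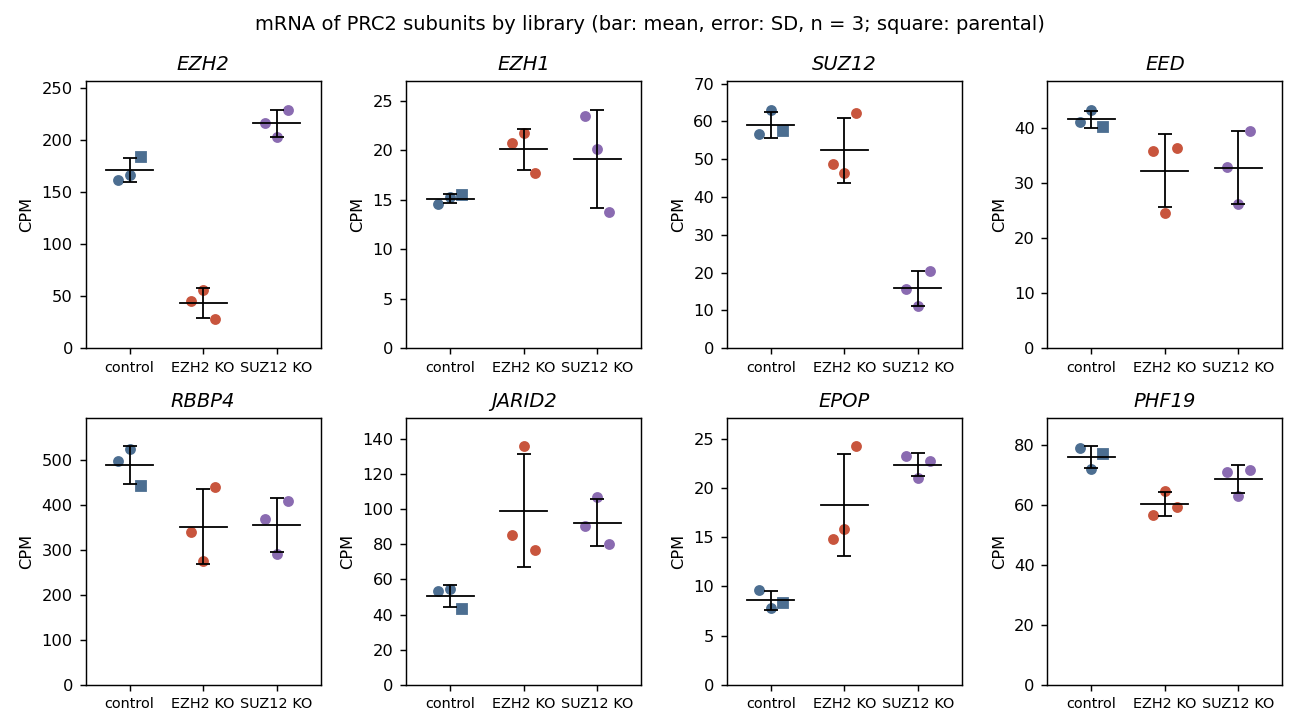
Normalized CPM (vertical axis, from 0) of 8 PRC2 subunits in the 3 control, 3 EZH2 KO and 3 SUZ12 KO libraries, with the mean as a bar, the SD as an error bar and the parental library as a square. EZH2 stood at 28.2 to 56.1 CPM in EZH2 KO clones and at 162 to 184 CPM in controls, and SUZ12 was lowered in the SUZ12 KO clones.

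Among subunits and partners of PRC1, 2 of 26 tested genes (7.69%) rose and 2 (7.69%) fell. Over all tested genes 12% rose, a larger share, and 3.69% fell. PCGF5, a RING-finger protein of a variant PRC1, rose from 17.2, 21.1 and 18.2 CPM to 55.5, 43.8 and 50.5 CPM (log2 fold change 1.41, adjusted p = 0.000714 from edgeR), with the groups far apart. SCML1 had a log2 fold change of 0.99 (adjusted p = 0.00931 from edgeR, and 0.0603 without WT clone replicate 1). PCGF2, the ring-finger partner of canonical PRC1, had a log2 fold change of −0.66 (adjusted p = 0.0128 from edgeR, and 0.0607 without WT clone replicate 1). L3MBTL2 had a log2 fold change of −0.94 (adjusted p = 0.0329 from edgeR), a call lost without any 1 of the 6 libraries (adjusted p up to 0.104). Of 16 antagonists of Polycomb, which include the H3K27 demethylases, 0 rose and 1 (6.25%) fell. It was the acetyltransferase CREBBP (log2 fold change −0.57, adjusted p = 0.0109 from edgeR). No DNA methyltransferase or TET gene of 7 tested was called.

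Across the transcriptome, increases outnumbered decreases. Of 15130 genes tested, 2377 (15.7%) passed the threshold of 0.05 on the adjusted p. In EZH2 KO clones 1819 of them were higher (12% of those tested) and 558 lower (3.69%). Among the called genes, 1608 were more than 2-fold higher and 207 more than 2-fold lower. The split depended on the abundance of the gene. Of 1928 genes with a mean below 1 CPM over the 6 libraries, 23.2% were called higher and 1.04% lower. Of 4935 genes that averaged 50 CPM or more, 3.26% were called higher and 6.38% lower. Scaling by library size alone, which moved the median log2 fold change of all tested genes from 0.04 to 0.20, gave 2065 genes higher and 295 lower, 87.5% of calls higher against 76.5% with TMM. The number of calls also depended on the test and on the libraries fitted, controls and KO clones alike. With DESeq2 in place of edgeR it was 3312, and with only the 6 libraries in the fit 3429. It was 1169 without WT clone replicate 1, 1227 without WT clone replicate 2, 1441 without the parental library and 1571 without EZH2 KO clone 2, and 199 with the parental library as the only control. Of the 168 called genes considered by name, 109 were called without each of the 6 libraries in turn.

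**Figure D2:**
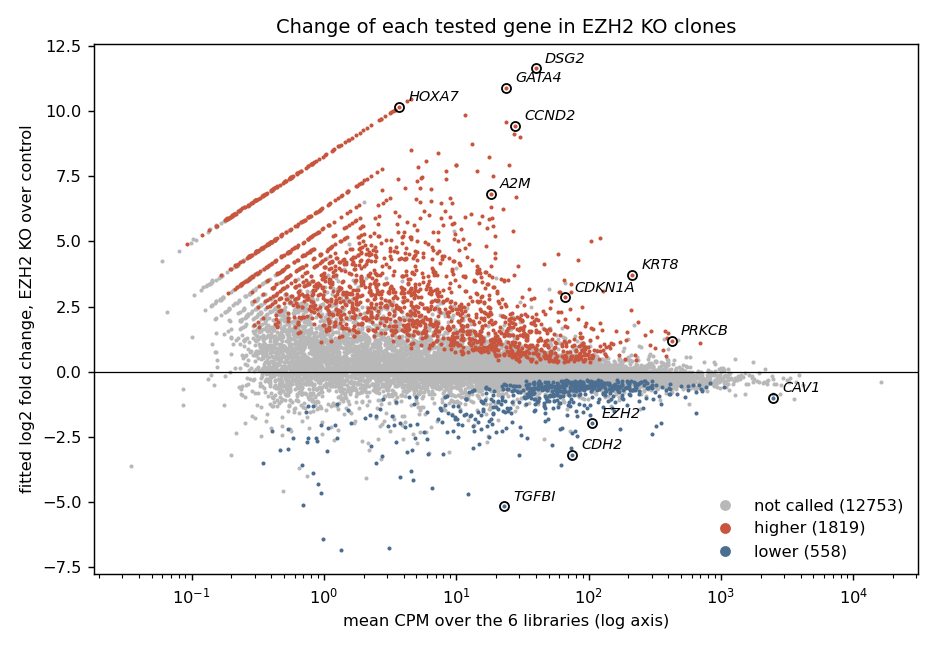
Fitted log2 fold change of each tested gene in EZH2 KO clones over controls (vertical axis) against its mean normalized CPM over the 6 libraries (horizontal log axis), with 1819 genes called higher in red and 558 called lower in blue. Higher calls dominate at low abundance, and the parallel lines at upper left are genes with 0 or few counts in controls, whose fitted change depends on the prior count.

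More genes were detected in each EZH2 KO clone. At a minimum of 10 counts, 13278, 13069 and 13323 genes were detected in the WT clone and parental libraries and 14539, 14680 and 14585 in KO clones 1, 2 and 3. The difference of the means was 1378 genes (exact permutation test, two-sided, p = 0.1, the smallest that 3 against 3 libraries allow). It was 1370 genes after thinning each library to the smallest total. Over all 28278 symbols of the table, 338 had at most 3 counts in every control and at least 10 in every EZH2 KO clone, and 7 the reverse. At a minimum of 50 counts these numbers were 58 and 1. The 7 genes, named after their values were seen, were GRAMD2A, LMF1-AS1, LOC643711, LRRC38, NRAP, PLCE1-AS1 and SPIN2A. GRAMD2A, for example, had 64, 43 and 38 counts in controls and 0, 1 and 0 in KO clones.

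The most strongly raised genes had almost no transcripts in controls and were abundant in EZH2 KO clones. DSG2 encodes a desmosomal cadherin and is located on chromosome 18 (31498177 to 31549008, + strand). It had 0, 0 and 0.0527 CPM in controls and 66.8, 100.3 and 73.4 CPM in KO clones 1, 2 and 3, at least 481-fold higher (adjusted p = 1.67e-08 from edgeR). The orphan nuclear receptor gene RORB had 0.0535, 0.181 and 0.105 CPM in controls and 74.2, 39.7 and 67.2 CPM in the clones, at least 362-fold higher (adjusted p = 1.66e-05 from edgeR). CCND2, a D-type cyclin on chromosome 12 from 4269771 to 4305353 on the + strand, was at 0, 0.0604 and 0.158 CPM in controls and at 32.3, 71.5 and 64 CPM in the clones, at least 336-fold higher (adjusted p = 3.27e-06 from edgeR). Groups that do not overlap were a condition for the choice of these genes, and no control of the 3 exceeded 0.181 CPM. GATA4, a factor of heart and endoderm development, was at most 0.0604 CPM in controls and 55.4, 31.4 and 56.6 CPM in the clones. The 12 highest were chosen by fitted log2 fold change, and the others are given with the lower bound of their fold, which does not follow the same order. They were KIF21A (328), the splicing regulator RBFOX1 (286), PERP (213), ZDBF2 (157), FIGN (139), ADAM23 (120), the kainate receptor GRIK3 (86.7) and CPNE8 (70.7). PERP and CPNE8 varied most among the clones, with 24.3, 73 and 9.04 CPM for PERP and 2.97, 28.3 and 4.02 CPM for CPNE8. The libraries carry no strand, so reads from exons that DSG2 shares with DSG2-AS1 and CCND2 with CCND2-AS1 cannot be told apart. These 12 genes and the 12 lowest were taken from the 1303 called genes that averaged 5 CPM or more and had groups that did not overlap, of which 799 were higher and 504 lower. Over all genes tested, called or not, the groups did not overlap upward for 26.4% and downward for 18.4%.

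Promoter sequences of 4 called genes are shown to illustrate the range of CpG density among them, as the 250 bases before the RefSeq start on GRCh38.p14, 5′ to 3′ on the strand of the gene, with each CG in capitals. HOXA7 (chr7:27156676-27156925, − strand, 28 CpG) and DSG2 (chr18:31497927-31498176, + strand, 26 CpG) were below the floor in controls and rose. KRT8 (chr12:52926470-52926719, − strand, 1 CpG) rose from a measurable level, and TGFBI (chr5:136028738-136028987, + strand, 20 CpG) fell.
HOXA7: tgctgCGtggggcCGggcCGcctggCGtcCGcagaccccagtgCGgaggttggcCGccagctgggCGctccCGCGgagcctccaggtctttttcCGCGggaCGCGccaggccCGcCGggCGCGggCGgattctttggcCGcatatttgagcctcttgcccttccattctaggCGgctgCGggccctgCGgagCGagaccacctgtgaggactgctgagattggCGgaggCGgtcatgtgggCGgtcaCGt
DSG2: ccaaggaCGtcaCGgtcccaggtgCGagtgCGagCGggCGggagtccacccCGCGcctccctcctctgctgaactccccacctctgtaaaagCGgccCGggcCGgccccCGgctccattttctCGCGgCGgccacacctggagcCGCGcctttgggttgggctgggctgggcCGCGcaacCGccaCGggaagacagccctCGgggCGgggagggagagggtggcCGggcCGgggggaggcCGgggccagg
KRT8: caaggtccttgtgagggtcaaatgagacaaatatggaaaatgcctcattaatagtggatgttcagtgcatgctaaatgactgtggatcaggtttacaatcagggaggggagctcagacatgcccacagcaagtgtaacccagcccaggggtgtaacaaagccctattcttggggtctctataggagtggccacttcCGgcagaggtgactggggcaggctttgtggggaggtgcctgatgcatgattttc
TGFBI: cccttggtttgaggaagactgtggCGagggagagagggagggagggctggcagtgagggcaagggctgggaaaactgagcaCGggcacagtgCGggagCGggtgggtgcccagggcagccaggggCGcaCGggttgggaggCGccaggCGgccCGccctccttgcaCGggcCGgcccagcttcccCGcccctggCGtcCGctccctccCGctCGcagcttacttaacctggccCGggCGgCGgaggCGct
The GC content of these stretches was 70.8%, 75.2%, 50.4% and 72.8%, and the ratio of observed to expected CpG was 0.90, 0.74, 0.07 and 0.62. Over all tested genes, windows of 250 bases before to 50 bases after the start were called CpG-rich at a ratio of at least 0.6 and a GC content of at least 50%. Such windows were found for 74.9% of 14877 tested genes with a sequence (95% exact binomial interval 74.2% to 75.6%), for 63.8% of genes called higher (61.5% to 66%), for 80.4% of genes called lower (76.9% to 83.6%) and for 76.2% of genes not called (75.5% to 77%). Over all tested genes the share was thus lowest in those called higher. Among genes below the floor in every control the order was the other way. The share was 58.3% of 487 genes called higher (53.8% to 62.7%) and 51.9% of 212 genes not called (44.9% to 58.8%), and these intervals overlap. Genes of both classes in this subset entered the test only through KO libraries, so this order is a description. Among genes that averaged 5 CPM or more the shares were 69.6% (higher), 82.5% (lower) and 83% (not called). These intervals cover counting error only. Each gene, KRT8 included, was given a single start, and whether A673 cells use that start was not tested.

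The 12 lowest genes had mean levels from 11 CPM (COL26A1) to 136 CPM (CDH2) in controls. CDH2 (N-cadherin), on chromosome 18 from 27932879 to 28177946 on the − strand, was at 139, 145 and 123 CPM in controls and at 12.6, 14 and 18.3 CPM in EZH2 KO clones (log2 fold change −3.18, standard error 0.384, adjusted p = 0.000416 from edgeR). TPM1, a tropomyosin, was at 107, 109 and 172 CPM in controls and at 21.4, 18.8 and 11.1 CPM in the clones (log2 fold change −2.92, adjusted p = 0.0018 from edgeR). PROM1, the stem cell surface protein CD133, was at 21.9, 22.6 and 26.7 CPM in controls and at 2.11, 3.66 and 3.6 CPM in the clones. That groups do not overlap was a condition for the choice of these genes. TGFBI, a secreted matrix protein, had the lowest log2 fold change of the 12 (−5.16, adjusted p = 0.0124 from edgeR). Its controls were uneven, with 20.3 and 19.2 CPM in the WT clone and 94.3 CPM in the parental line against 1.2, 1.44 and 1.09 CPM in the clones. Without the parental library the log2 fold change of TGFBI was −4.01 (adjusted p = 0.0516 from edgeR). NEB, the giant muscle protein nebulin, was also highest in the parental line (29.2 CPM, against 4.39 and 3.93 CPM in the WT clone) and was at 0.284 to 0.832 CPM in the clones, with an adjusted p of 0.024 that rose to 0.101 without the parental library. MRGPRF, RGS5, MYOF, SIPA1L2, COL26A1, GAP43 and FREM2 had log2 fold changes from −4.68 to −2.78. The calls of RGS5 without EZH2 KO clone 3 (adjusted p = 0.0505) and of GAP43 without EZH2 KO clone 1 (adjusted p = 0.0544) were lost.

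**Figure D3:**
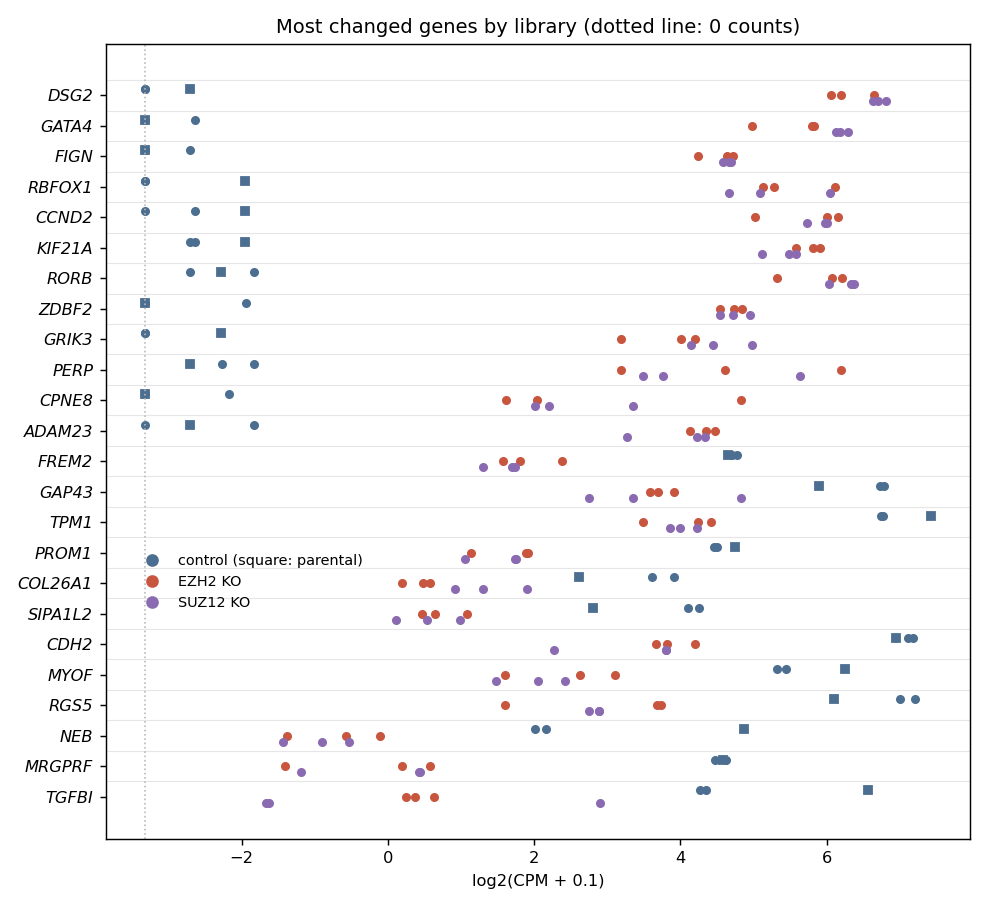
The 12 most raised and 12 most lowered genes, as log2(CPM + 0.1) on the horizontal axis, in each control (blue, square for parental), EZH2 KO (red) and SUZ12 KO (purple) library, with 0 counts at the dotted line. For the raised genes the controls lie at or near 0 counts, and for NEB and TGFBI the parental square lies apart from the WT clone.

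Genes of the HOX clusters, which set positional identity along the body axis, separated by cluster. The split by cluster was made after the values of the whole list were seen. In the HOXA cluster on chromosome 7, all 11 genes of the table had 0 counts in all 3 controls. Of these, 9 were tested and 9 were called higher. HOXA7 had 8.58, 5.93 and 7.76 CPM in KO clones 1, 2 and 3, at least 44.6-fold above the floor of the controls (adjusted p = 4.41e-05 from edgeR). HOXA10 had 5.85, 5.43 and 4.83 CPM (at least 32.2-fold). The smallest bound among the 9 was that of HOXA5, at 1.73, 0.67 and 1.09 CPM (at least 6.96-fold). HOXA6 reached at most 5 counts and HOXA9 had 0 counts in every library of both groups. A gene with no counts in controls enters the test only through KO libraries, so the 9 of 9 is a description. Genes of the other clusters, HOXB1 excepted, already had counts in controls. HOXD13 was at 69.5, 66 and 64.6 CPM in controls and at 99.8, 84.1 and 93.6 CPM in EZH2 KO clones (log2 fold change 0.47, adjusted p = 0.0421 from edgeR). HOXD9 fell from 81.6, 72.3 and 74.7 CPM to 40.4, 54 and 43.3 CPM (log2 fold change −0.73, adjusted p = 0.00508 from edgeR). HOXD10 had a log2 fold change of −0.61, a call lost without any 1 of 5 libraries (adjusted p up to 0.0788). Of 9 tested genes each in HOXB and HOXC, 1 (11.1%) and 3 (33.3%) rose, against 12% of all tested genes, and 0 fell. These were HOXB13 (log2 fold change 0.95), HOXC11 (1.61), HOXC12 (1.58) and HOXC13 (0.87), so that each called gene of HOXB and HOXC belonged to the 5′ side of its cluster. In HOXD, 1 of 8 (12.5%) rose and 2 (25%) fell, against 3.69% of all tested genes that fell.

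**Figure D4:**
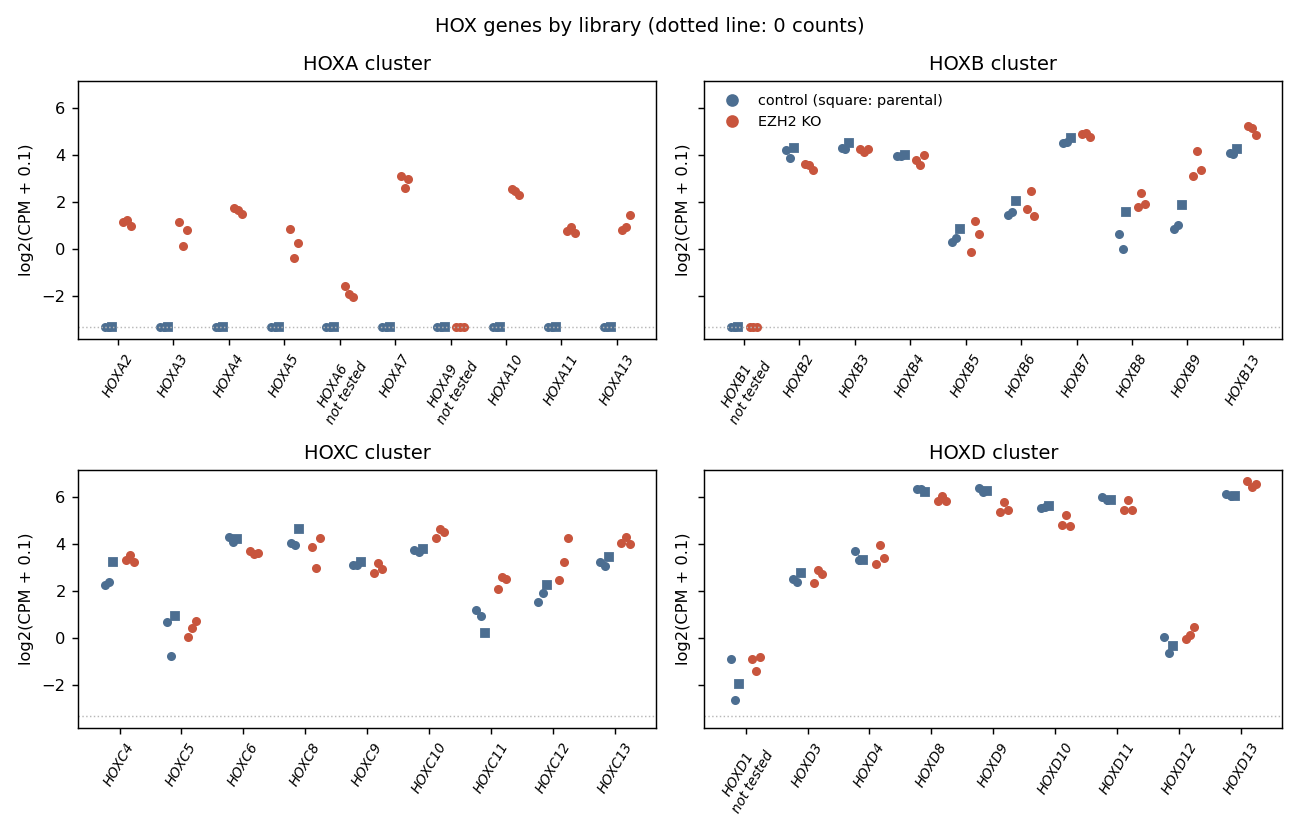
HOX genes by cluster, with 10 of the HOXA cluster, as log2(CPM + 0.1), with controls in blue (square for parental), EZH2 KO clones in red and 0 counts at the dotted line. HOXA genes lie at 0 counts in controls and above it in EZH2 KO clones, apart from HOXA9, while HOXB, HOXC and HOXD genes other than HOXB1 had counts in both groups.

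Developmental transcription factors outside the HOX clusters included many raised genes. Of 137 dispersed homeobox genes in the table, 98 were tested, 43 (43.9%, against 12% of all tested genes) rose and 4 fell. Their median log2 fold change was 1.24, or 1.08 with the 27 genes below the floor in controls set to their lower bound. Over all tested genes it was 0.04. Those 27 genes entered the test only through KO libraries. Of all 709 tested genes below the floor in every control, 495 were called higher, so the counts of this paragraph are descriptions. NKX2-2, which is a target of EWS::FLI1, was already expressed, with 31.5, 26.9 and 33.9 CPM in controls against 106, 95.8 and 105 CPM in the clones (log2 fold change 1.74, adjusted p = 0.00309 from edgeR). DLX1 fell from 36.7, 32.7 and 39.8 CPM to 16.1, 7.37 and 15.3 CPM (log2 fold change −1.49, adjusted p = 0.0127 from edgeR), and DLX2, its neighbour, from 21.8 to 32.4 CPM to between 7.81 and 14.7 CPM, a call lost without any 1 of 4 libraries (adjusted p up to 0.0825). Of 26 tested forkhead genes, 10 (38.5%) rose and 1 (3.85%) fell. FOXP2, a factor of the developing brain, had 0.0535, 0.181 and 0.211 CPM in controls and 15.5, 13.5 and 4.69 CPM in the clones (log2 fold change 6.18, adjusted p = 9.35e-05 from edgeR). Of 23 SOX and T-box genes 8 (34.8%) rose and 0 fell, among them TBX20 and SOX17, both at 0 counts in controls. Of 25 lineage bHLH genes 7 (28%) rose and 2 (8%) fell.

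Of 6 GATA factors in the table, 4 were tested and called higher. GATA4, described above, and GATA6 were below the floor in every control and entered the test only through KO libraries, so that this count is a description. GATA3 was at 0.321 and 0.302 CPM in the WT clone, 1.58 CPM in the parental line and 2.11, 9.65 and 11.9 CPM in EZH2 KO clones (adjusted p = 0.021 from edgeR, and 0.0948 without WT clone replicate 1). GATA2 was at 7.97 and 7.49 CPM in the WT clone, 28.1 CPM in the parental line and 50.3, 34.9 and 54.4 CPM in EZH2 KO clones (adjusted p = 0.0345 from edgeR, and 0.137 without WT clone replicate 1). For GATA2 and GATA3 the parental line thus lay between the WT clone and the KO clones. GATA6 stayed below 1 CPM in every library.

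Signaling lists are given beside the 12% of all tested genes called higher and 3.69% called lower. Of their tested genes, 5 (WNT), 8 (BMP and TGF-beta), 1 (FGF and ERK feedback) and 4 (axon guidance) were below the floor in controls. They entered the test only through KO libraries, so the counts of this paragraph are descriptions. Of 40 tested genes of WNT ligands, receptors and antagonists, 13 (32.5%) rose and 4 (10%) fell. LEF1, a transcription factor of the pathway, had 0.0535, 0.121 and 0.422 CPM in controls and 17.5, 15.5 and 22 CPM in EZH2 KO clones (log2 fold change 6.46, adjusted p = 0.00337 from edgeR). The antagonist SFRP1 had at most 0.0535 CPM in controls and 2.78, 1.94 and 5.68 CPM in the clones, at least 20.8-fold higher. LGR5, a receptor for R-spondins, fell from 21, 22.2 and 25.1 CPM to 5.13, 2.11 and 6.63 CPM (log2 fold change −2.29, adjusted p = 0.00783 from edgeR). FZD4, a WNT receptor, fell from 186, 215 and 173 CPM to 104, 83 and 73.7 CPM. Of 48 genes of BMP and TGF-beta signaling, 9 (18.8%) rose and 3 (6.25%) fell, and the BMP ligands GDF10 (at least 118-fold), BMP2 (at least 28.8-fold) and BMP4 were among those raised. SMAD6, an inhibitory SMAD, fell from 61.8, 47.1 and 62.2 CPM to 21.1, 22.1 and 17.5 CPM (log2 fold change −1.49, adjusted p = 0.000921 from edgeR). Among 27 genes of FGF signaling and ERK feedback, 6 (22.2%) rose and 4 (14.8%) fell. FGFR2 rose from at most 0.267 CPM to 2.44, 6.6 and 3.22 CPM, and FGFR1 fell from 185, 173 and 157 CPM to 83.7, 105 and 90.8 CPM (log2 fold change −0.88, adjusted p = 0.00206 from edgeR). Of 68 axon guidance genes, 14 (20.6%) rose and 2 (2.94%) fell, with EFNB2 rising from 1.07, 1.69 and 0.949 CPM to 80.9, 18.1 and 58.3 CPM.

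Many tested genes of excitable cells were called higher, at low abundance. Of 140 voltage-gated and potassium channel genes in the table, 79 were tested. Of these, 37 (46.8%, against 12% of all tested genes) rose and 1 (1.27%, against 3.69%) fell. Below the floor in controls were 18 of the tested genes. They entered the test only through KO libraries, so these counts are descriptions. KCNA6, a potassium channel, had 0 counts in controls and 0.958, 3.94 and 3.17 CPM in EZH2 KO clones, at least 16.1-fold higher. The exception was CACNA1C, a calcium channel of heart and smooth muscle, which fell from 7.06, 6.22 and 7.96 CPM to 0.24, 0.554 and 0.473 CPM (log2 fold change −4.05, adjusted p = 0.000854 from edgeR). Of 28 tested transmitter receptor genes, 5 of them below the floor in controls, 11 (39.3%) rose and 0 fell. Of 38 neural and neuroendocrine genes, 5 of them below the floor in controls, 14 (36.8%) rose and 3 (7.89%) fell. The neurotrophin receptor gene NTRK2 had 0 counts in controls and 2.16, 3.55 and 2.89 CPM in the clones, and SYT4, a synaptotagmin, rose from 0.588, 0.664 and 0.158 CPM to 25, 11.4 and 27 CPM (log2 fold change 5.49, adjusted p = 0.000225 from edgeR). The 3 that fell were GAP43, NEFL and CHGA, with log2 fold changes of −2.80, −2.14 and −2.04. Their calls were lost without 1 or more of the 6 libraries, with adjusted p up to 0.0544, 0.0519 and 0.11.

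Adhesion genes changed on both sides. Of 45 cadherins and nonclustered protocadherins, 16 (35.6%) rose and 10 (22.2%) fell, beside 12% and 3.69% of all tested genes. The desmosomal cadherins DSG2 and DSC2 rose, the latter from 0 counts to 3.79, 4.6 and 1.33 CPM, while the classical cadherins CDH2 and CDH6 fell. CDH6 went from 13.6, 13.8 and 6.48 CPM to 2.73, 4.32 and 2.46 CPM (log2 fold change −1.83, adjusted p = 0.00831 from edgeR). Of 43 tested clustered protocadherins 1 (2.33%) rose, PCDHB6, and 3 (6.98%) fell, PCDHGA2, PCDHGA6 and PCDHGA11. The calls of PCDHB6 and PCDHGA2 were lost without any 1 of the 6 libraries (adjusted p up to 0.188 and 0.157) and that of PCDHGA11 without any 1 of 2 (up to 0.0556), and PCDHGA6 (log2 fold change −1.20) kept its call. Of 33 collagens 11 (33.3%) rose and 5 (15.2%) fell. COL4A5, a basement membrane collagen, had 0 counts in controls and 6.9, 17.6 and 1.14 CPM in the clones. The fibrillar collagen COL3A1 fell from 656 and 613 CPM in the WT clone and 240 CPM in the parental line to 119, 146 and 19.2 CPM (log2 fold change −2.41, adjusted p = 0.0256 from edgeR, and 0.0832 without WT clone replicate 1). Of 31 integrins and laminins, 8 (25.8%) rose and 5 (16.1%) fell. The leukocyte integrin subunits ITGB2, ITGAM and ITGAX rose. Others of this kind, ITGAL and ITGB7, had at most 3 counts in any of the 6 libraries and were not tested. ITGB2 went from 4.49, 3.44 and 3.16 CPM to 25.9, 73.5 and 26 CPM (log2 fold change 3.49, adjusted p = 0.00134 from edgeR). The summed level of 6 blood markers was at most 0.942 CPM in any of the 6 libraries. ITGA1, a collagen receptor, fell from 34.8, 37.7 and 17.5 CPM to 7.81, 5.71 and 2.13 CPM. Of 18 tested keratins and claudins, 5 (27.8%) rose and 0 fell. Below the floor in every control were 8 of the tested cadherins, 6 collagens, 2 integrins and laminins and 4 keratins and claudins. These genes entered the test only through KO libraries, so the counts of this paragraph are descriptions. KRT8 rose from 28.4, 24.9 and 36.6 CPM to 490, 289 and 410 CPM (log2 fold change 3.73, adjusted p = 0.000549 from edgeR), while its partner KRT18, with overlapping exons on the other strand, had a log2 fold change of 0.46 (adjusted p = 0.315 from edgeR). Of 5 epithelial markers 3 were below 1 CPM in every library, with CDH1 at no more than 1 count in any of the 6 libraries. In bulk RNA, a change in the number of cells that express a gene and a change in RNA per cell cannot be told apart.

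Cell cycle brakes were examined because EZH2 is known to repress the CDKN2A locus in other cells. CDKN2A and CDKN2B had 0 counts in all 6 libraries and did not enter the test. Whether the locus is intact in A673 was not tested, so these counts do not report on its repression by EZH2. CDKN1A, which encodes p21, rose from 20.6, 16.8 and 11 CPM to 91.9, 181 and 78 CPM (log2 fold change 2.86, standard error 0.429, adjusted p = 0.00135 from edgeR). CDKN2D had a log2 fold change of 0.96 (adjusted p = 0.0162 from edgeR, and 0.0733 without the parental library). Of 54 genes of DNA replication and mitosis, 0 rose and 2 (3.7%, against 3.69% of all tested genes) fell, FOXM1 (log2 fold change −0.58) and POLE (−0.61). The calls of FOXM1 and POLE were each lost without any 1 of 4 libraries (adjusted p up to 0.0995 and 0.127). Their list had a median log2 fold change of −0.26. None of 79 ribosomal protein genes and none of 33 genes of cholesterol and fatty acid synthesis was called by edgeR at an adjusted p under 0.05.

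Antigen presentation and antiviral genes changed in part. Of 18 tested genes of MHC class I presentation, 3 (16.7%, against 12% of all tested genes) rose and 1 (5.56%, against 3.69%) fell. HLA-B rose from 1.66, 1.99 and 2.27 CPM to 10.4, 32.1 and 41.2 CPM (log2 fold change 3.82, adjusted p = 0.00183 from edgeR), and HLA-E from 39.1, 39.8 and 50 CPM to 137, 114 and 181 CPM (log2 fold change 1.75, adjusted p = 0.000875 from edgeR). HLA genes are similar in sequence, and reads that fit several of them could be placed on any. The peptide-trimming enzyme ERAP1 fell from 82.4, 88 and 70.4 CPM to 43.2, 42.5 and 36.8 CPM (log2 fold change −0.98, adjusted p = 0.00203 from edgeR). HLA-C (log2 fold change 1.11) and the shared light chain gene B2M (−0.14) did not pass the test. Of 52 interferon-stimulated genes 11 (21.2%) rose and 0 fell. Raised among them was the RNA sensor IFIH1, at 0.214, 0.181 and 0.527 CPM in controls and 6.47, 5.04 and 4.17 CPM in the clones (log2 fold change 4.05, adjusted p = 0.00468 from edgeR). ISG15 and IFIT1, widely used reporters of the interferon response, had log2 fold changes of 0.09 and 0.13 and were not called.

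In the synthesis of gangliosides, surface glycolipids that include GD2, 4 of 10 tested genes (40%) rose and 0 fell. Over all tested genes, 12% rose and 3.69% fell. B4GALT6, which makes lactosylceramide, rose from 0.535, 0.181 and 1.21 CPM to 8.53, 4.77 and 13.3 CPM (log2 fold change 3.75, adjusted p = 0.00268 from edgeR). ST8SIA1, the GD3 synthase, was at 0.321, 0.181 and 0.105 CPM in controls and at 2.59, 0.776 and 2.98 CPM in the clones (adjusted p = 0.0144 from edgeR, and 0.0698 without WT clone replicate 2). B4GALNT1, the GD2 synthase, was at 34.4 to 39.8 CPM in controls and at 35.4 to 41 CPM in the clones (log2 fold change −0.02). Of 34 genes of glycolysis and the hypoxia response, 10 (29.4%) rose and 1 (2.94%) fell. The lactate exporter gene SLC16A3 rose from 1.18, 0.544 and 0.633 CPM to 16, 33.4 and 10.7 CPM (log2 fold change 4.66, adjusted p = 0.00234 from edgeR). Their median log2 fold change was 0.03, that of all genes being 0.04. Among the alpha-2-macroglobulin family of protease inhibitors and complement proteins, 3 of 7 (42.9%) rose. A2M was at 0.428, 0.302 and 0.211 CPM in controls and at 58.5, 13.2 and 37.5 CPM in the clones (log2 fold change 6.83, adjusted p = 0.00027 from edgeR). Of 25 imprinted genes, 3 of them below the floor in controls, 5 (20%) rose and 1 (4%) fell. PEG10, a retrotransposon-derived gene, fell from 564, 592 and 529 CPM to 157, 149 and 128 CPM (log2 fold change −1.96, adjusted p = 4.41e-05 from edgeR), and WT1 rose from 11, 11.7 and 15.4 CPM to 52.6, 40.4 and 56.6 CPM.

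Genes linked to the EWS::FLI1 fusion moved in both directions. The study sorted its EWS::FLI1 targets by where the fusion binds, at the promoter itself or at a distal site with short or long GGAA repeats in contact with the promoter. Of 553 tested genes of the promoter class, 62 (11.2%) rose and 20 (3.62%) fell, beside 12% and 3.69% of all tested genes. Of 690 genes linked to distal short repeats, 73 (10.6%) rose and 61 (8.84%) fell. Of 153 genes linked to distal long repeats, 18 (11.8%) rose and 13 (8.5%) fell. The 3 classes had median log2 fold changes of 0.01, −0.09 and −0.08. The transcripts of the fusion partners did not pass the test, with a log2 fold change of −0.28 for EWSR1 and −0.15 for FLI1. Of 36 known activated targets 8 (22.2%) rose and 1 (2.78%) fell. PRKCB, a protein kinase C, rose from 259, 271 and 249 CPM to 596, 548 and 631 CPM (log2 fold change 1.19, adjusted p = 0.00285 from edgeR), and CAV1 fell from 2989, 3321 and 3549 CPM to 1801, 1518 and 1633 CPM (log2 fold change −0.99, adjusted p = 0.0017 from edgeR). Of 23 known repressed targets 1 (4.35%) rose and 4 (17.4%) fell. Of 21 mesenchymal and contractile genes 3 (14.3%) rose and 2 (9.52%) fell. The summed level of 6 fibroblast markers, all of them expressed in this line, was 909 to 2215 CPM in controls and 735 to 1106 CPM in EZH2 KO clones, and its part in these results was not tested. Among 18 tested genes described as silenced by EZH2 in tumors, 7 (38.9%) rose and 2 (11.1%) fell. The nuclear receptor NR2F1, which the study follows, was at 5.94 and 6.46 CPM in the WT clone, 1.05 CPM in the parental line and 3.11, 4.49 and 2.84 CPM in EZH2 KO clones (log2 fold change −0.36, standard error 0.559, adjusted p = 0.69 from edgeR). Its log2 fold change was 1.69 (adjusted p = 0.26 from edgeR) with the parental library as the only control, so that the sign depended on the control. NR2F2 fell from 187, 177 and 193 CPM to 103, 110 and 102 CPM (log2 fold change −0.82, adjusted p = 0.00137 from edgeR).

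**Figure D5:**
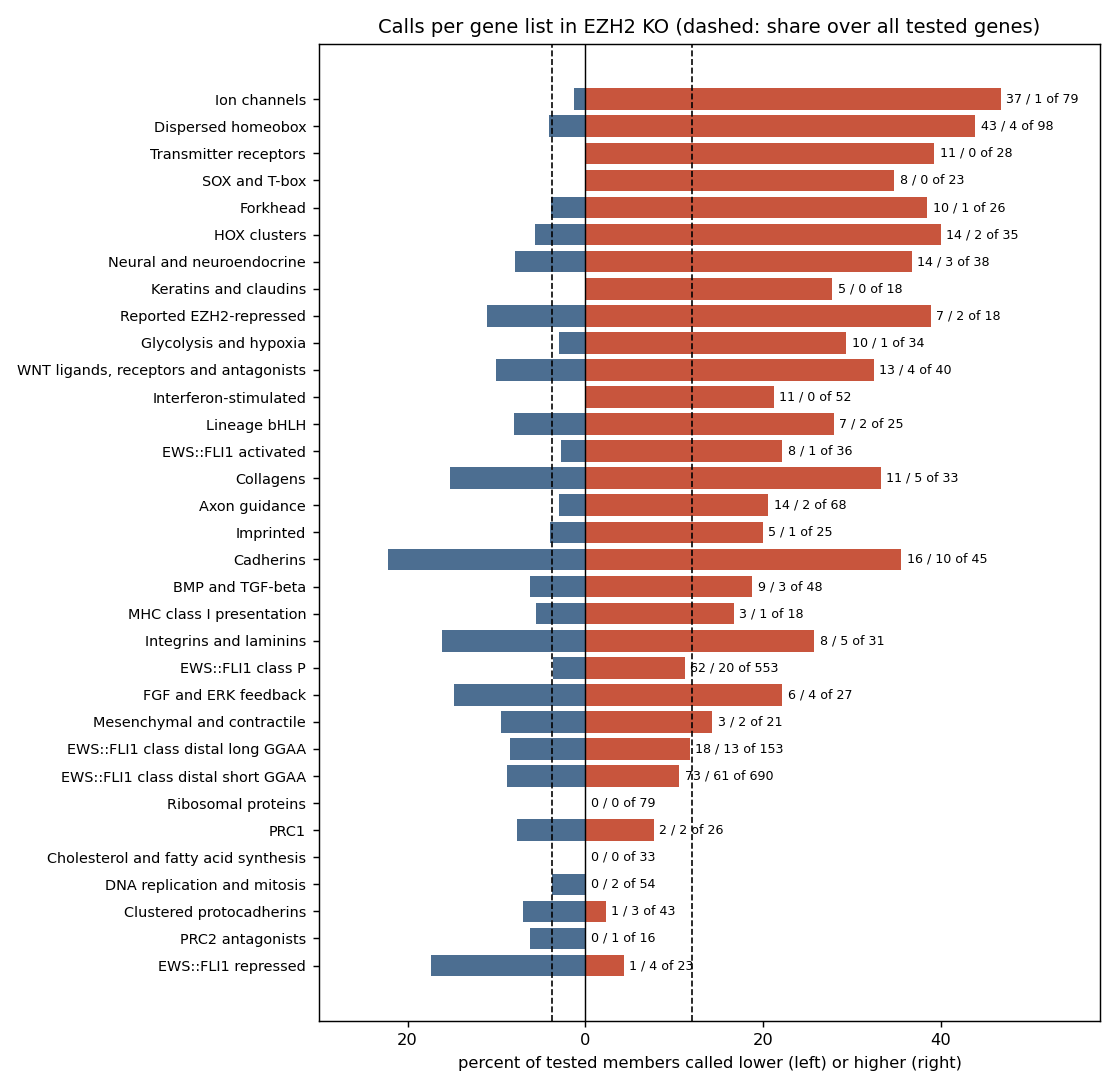
Percent of the tested members of each list called higher (red, right) or lower (blue, left) in EZH2 KO clones, for lists with at least 15 tested members, with the numbers higher / lower of tested beside each bar and the shares over all tested genes (12% and 3.69%) as dashed lines. Ion channels (37 of 79) and dispersed homeobox genes (43 of 98) had the highest shares raised, and ribosomal protein genes had 0 calls. Members below the floor in every control entered the test only through KO libraries.

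The SUZ12 KO clones of the same experiment lack another core subunit of PRC2 and were compared with the same 3 controls, so their changes are not independent of those in EZH2 KO clones. Against these controls 2224 genes were higher and 888 lower in SUZ12 KO clones. Among the most raised genes, DSG2 was at 66.8 to 100.3 CPM in EZH2 KO and 99.6 to 113 CPM in SUZ12 KO clones, and CCND2 at 32.3 to 71.5 and 53.3 to 64 CPM. GATA4 was at 31.4 to 56.6 CPM in EZH2 KO and 70 to 78.2 CPM in SUZ12 KO clones, without overlap (unadjusted p = 0.047, adjusted p = 0.999 from edgeR). HOXA7 was at 5.93 to 8.58 CPM in EZH2 KO and 7.61 to 11.3 CPM in SUZ12 KO clones. The A2M transcript was at 13.2 to 58.5 CPM in EZH2 KO and 62.6 to 127 CPM in SUZ12 KO clones, a log2 difference of −1.33 that did not pass the test (unadjusted p = 0.0158, adjusted p = 0.999 from edgeR). Compared directly, only 1 of 15130 genes (0.00661%) differed between EZH2 KO and SUZ12 KO clones, EZH2 itself, while 629 genes had an unadjusted p under 0.05 and DESeq2 called 22. SUZ12 was 1.73 higher on the log2 scale in EZH2 KO than in SUZ12 KO clones (standard error 0.231, adjusted p = 0.0663 from edgeR, and 3.2e-08 from DESeq2). A p that misses the threshold does not show that the KO lines act alike.

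The median SD of log2 CPM was 0.206 over the 3 EZH2 KO clones and 0.135 over the controls, of which 2 are libraries of a single clone. The 6 genes with the widest range over the clones, among those that averaged 5 CPM or more, were MAGEB2, RGS1, GABRA4, FUCA2, ZNF788P and MORF4L2. MORF4L2, a chromatin-associated gene, was at 347, 371 and 320 CPM in controls and at 349 and 302 CPM in clones 2 and 3, but at 11.8 CPM in clone 1. MAGEB2, a cancer-testis gene, reached 53.8 CPM in clone 2 and stayed at 2.88 and 0.0947 CPM in clones 1 and 3. GABRA4, a GABA receptor subunit, was at 69.3 and 95.1 CPM in clones 1 and 2 and at 1.56 CPM in clone 3, within the 1 to 4.77 CPM of the controls. It was called higher (adjusted p = 0.0211 from edgeR), and this call was lost without any 1 of 5 libraries (adjusted p up to 0.0782). RGS1 was at 40 CPM in clone 2 and below 1 CPM in clones 1 and 3. For MAGEB2, RGS1, FUCA2, ZNF788P and MORF4L2 the change of the group was not called.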

How the data were processed

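Total RNA of A673 clones was sequenced in the second experiment of the series. According to the methods, the authors made non-directional oligo-dT libraries and aligned 86-nt single-end reads to hg38 with TopHat 2.0.0 and Bowtie 0.12.7, allowing 2 mismatches and 5 multi-hits. They deposited counts of reads per gene symbol, without normalization. The counting program and the annotation are not given in the sources used here. The table also holds 3 STAG2 KO and 3 SUZ12 KO libraries, and 0 columns were left out.

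The 12 libraries were fitted together with edgeR 4.0.16 in R 4.3.3 (TMM, filterByExpr, quasi-likelihood test, 8 residual degrees of freedom). The 3 EZH2 KO libraries were contrasted with the WT clone and parental libraries, and a Benjamini-Hochberg adjusted p below 0.05 made a call. DESeq2 1.42.0 was an alternative. Folds against controls below the floor are lower bounds, the mean CPM of the KO clones over that of 3 counts. Genes below the floor in every control entered the test only through KO libraries, so shares of lists that hold them are descriptions. Members and gene lists were chosen with earlier results of these data known. Named genes were the PRC2 subunits and NR2F1, the 12 highest and 12 lowest called genes with at least 5 CPM and groups apart, up to 3 highest and 3 lowest called genes per list with at least 1 CPM in the higher group, and the 6 of widest range over clones. Others named were chosen after their values were seen, and some genes that met the rule are not reported here. Coordinates are those of GENCODE 44 on GRCh38, where 26208 of 28278 symbols matched. Promoter windows came from RefSeq for 18581 symbols and from the genome at the GENCODE gene start for 8329. On simulated data for this comparison with 14847 genes, 64 of 100 genes changed 4-fold and 35 of 100 changed 2-fold were called, with 6 false calls.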

Additional observations from a re-analysis of the deposited data

Results flagged for a closer look

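The level of EZH2 differed between the KO lines, in a direct test of the difference. It was −2.32 on the log2 scale in EZH2 KO relative to SUZ12 KO clones (adjusted p = 0.00186 from edgeR), with 45.6, 56.1 and 28.2 CPM in the 3 EZH2 KO clones and 216, 203 and 229 CPM in the 3 SUZ12 KO clones. Leaving out each KO library in turn gave differences from −2.55 to −2.09. Groups of 3 libraries are too small for the search for single outlying libraries.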

How the results depend on the processing

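The log2 fold change of EZH2 stayed negative and called under every alternative, from −2.21 to −1.75. All 3 counts of calls depended on the libraries. Leaving out 1 library gave 1169 to 1760 called genes, 935 to 1430 higher and 234 to 333 lower, and with the parental library as the only control 199 were called (173 higher, 26 lower), with fewer samples. Genes called lower numbered 1014 with DESeq2, 295 with library size only and 1117 with only the 6 libraries fitted, against 558. Genes below the floor in every control and called higher numbered 495, and 326 with only the 6 libraries and 74 with the parental library as the only control. The 2 WT clone libraries share numbers with KO clones 1 and 2, but the numbers name no shared culture. Deviations of same-numbered WT clone and EZH2 KO libraries correlated at −0.11 and 0.09, and differently numbered ones at −0.26 to 0.29. Those of same-numbered EZH2 KO and SUZ12 KO clones correlated at −0.16, 0.43 and 0.43 for numbers 1, 2 and 3. Differently numbered pairs of these KO lines ranged from −0.47 to 0.11. The direct test between the KO lines used no pairing, and the source of these correlations was not tested. With the replicate number as a block, 8 libraries gave 4114 called genes (2655 higher, 1459 lower), of which 2141 were among the 2377. Without the parental library, 1362 of 1441 calls were shared with these. DESeq2 called 22 genes between EZH2 KO and SUZ12 KO, and leaving out 1 library gave 1 to 2. CpG-rich promoters made up 69.6% of the genes called higher at a mean of at least 5 CPM, against 63.8%. Genes that were not called changed sign, namely PHF1 with library size only (0.14) and with the block (0.0078), MTF2 with library size only (0.14), ZNF788P with library size only (0.046) and NR2F1 with the parental library as the only control (1.69). Leaving out 1 library gave log2 fold changes from −0.040 to 0.46 for RBBP7, −0.086 to 0.027 for PHF1, −0.091 to 0.11 for MTF2 and −2.78 to 3.31 for RGS1, and a log2 fold change of ZNF788P from −2.44 to 0.51. The cause was not tested. Of the 168 called genes considered by name, 165 of 166 tested by DESeq2 kept their call and 36 with the parental library only, and none changed sign under any alternative run. A gene with 10 counts in a library is measured with large counting error, and low genes pass the test at large changes only.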

Other observations

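By chromosome, the median log2 difference of expressed genes from the mean of the controls differed between clones on chromosomes 6 and 8. On chromosome 1, for comparison, it was −0.03, −0.08 and −0.03 in clones 1, 2 and 3. It was 0.13 and 0.19 in clones 1 and 2 on chromosome 6. Clone 3 stood at −0.11 there and at −0.14 on chromosome 13. On chromosome 8 it was −0.29 in clone 2, where clones 1 and 3 both stood at 0.03. On chromosome 18, which carries DSG2, DSC2 and CDH2, 15.4% of 221 tested genes were called higher and 7.24% lower. Over all tested genes these shares were 12% and 3.69%. Other chromosomes had similar shares, with 14.5% of 557 genes higher on chromosome 4 and 7.33% of 273 genes lower on chromosome 13.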
